A study of Bos taurus with 13 samples.

Results

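TGFBR2, FGF2, GHR, RARA, TEAD3 and EGR1 are 6 growth factor and hormone signalling genes printed on a bovine mammary cDNA microarray. They were chosen by gene symbol from 703 genes with usable values, and each was represented by 1 clone in 3 spots. The gene identifier that the platform annotation gives TEAD3 was not found in the bovine RefSeq table, although its symbol was. The lactating comparison comprised 2 arrays, with lactating mammary gland set against the gland of a prepubertal Holstein heifer of 136 kg on array 1 and of 227 kg on array 2. A keyword of array 2 reads post-pubertal, against its title and channel, which were followed. The tissue comparison comprised 8 arrays, on which RNA of prepubertal mammary gland (a Holstein heifer of 136 kg), thymus, spleen, lymph tissue, liver, ileum, adrenal or adipose tissue was set against RNA of a cell line named BovMac. On 2 further arrays the cell line was hybridised against itself, and these serve here as the background (the label of 1 spells the line BovMav). 1 more array compared prepubertal gland (136 kg heifer) with postpubertal gland (310 kg heifer). The labels do not say whether arrays shared animals or RNA, so the spread between the 2 lactating arrays may be partly technical.

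These genes act at different levels of signalling and belong to several pathways. FGF2 is a secreted ligand that binds tyrosine kinase receptors and heparan sulfate. TGFBR2 is the type II receptor that binds transforming growth factor beta and activates the type I receptor, which in turn phosphorylates SMAD proteins. GHR is the growth hormone receptor, which signals through the kinase JAK2 to STAT5. RARA is a nuclear receptor that binds retinoic acid, TEAD3 is the DNA-binding partner of the Hippo pathway coactivators YAP and TAZ, and EGR1 is a zinc finger transcription factor rapidly induced by growth factors. In the mammary gland, growth hormone, fibroblast growth factors and transforming growth factor beta are known regulators of duct growth, and lactation follows the outgrowth of secretory alveoli.

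Values are log ratios of the 2 channels, centred on the array median. The base of the logarithm is not stated, so 1 unit is not converted to a fold. Signs were kept as deposited. On the lactating arrays positive values are described as on the casein side, because 8 of 9 measured milk secretion genes had a positive mean. The alpha-S1 casein gene CSN1S1 was at 2.09 ± 0.67 (SD, n = 2). Of the 9 genes, 2 passed the test used below, CSN1S1 and CSN2. CSN3 (0.98 and -0.16), CSN1S2 (-0.19 and 0.39) and MUC1 (0.0008 and -0.20) changed side between the arrays. The casein side is likely the side of more RNA in lactating gland. For the tissue arrays the direction was not settled, and turning the sign would reverse every order given below. In tissue RNA, fewer cells of a type and less RNA per cell cannot be told apart. Over all genes, the median distance from 0 was 0.17 and 0.25 on the lactating arrays, 0.08 to 0.20 on the tissue arrays, and 0.13 and 0.18 on the reference against reference arrays. The median SD over 3 spots was 0.06 to 0.10 on the tissue arrays and 0.11 and 0.17 on the lactating arrays, against 0.10 and 0.29 on the reference against reference arrays.

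The lactating arrays asked which genes differ between lactating and prepubertal gland. TGFBR2 and TEAD3 were on the casein side on both arrays and FGF2 was on the opposite side on both, while GHR and EGR1 had means closer to 0 and RARA changed side between the arrays. None of the 6 passed limma's test at an adjusted p of 0.05, and 2 had an unadjusted p under 0.05. Over all genes 103 of 697 (14.8%) passed, and 201 (28.8%) had an unadjusted p under 0.05. Of the 103 genes that passed, 76.7% lay on the casein side. The share among passing genes was 61.9% on the values as deposited and 96.7% with arrays scaled to 1 spread. The median of the 6 means was 0.15, against -0.00027 over all genes, and the median of their sizes was 0.21, against 0.19 over all genes. The smallest mean that passed was 0.47 in size. By the labels, lactating RNA was in the same channel on both lactating arrays, with no dye swap, so neither array offsets dye bias in the other. CSN1S1 was positive on both. The test leans on a spread pooled over genes (14.5 degrees of freedom in total).

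FGF2, the ligand, had spot values of -0.08, -0.17 and -0.27 on lactating array 1 and -0.31, -0.22 and -0.39 on lactating array 2. Its spots on the reference against reference arrays lay at -0.13, -0.37 and 0.03 on array 1 and at 0.11, -0.13 and 0.32 on array 2. All 6 lactating spots were on the opposite side, and they overlapped those of the reference against reference arrays. Among clones with 3 spots on both lactating arrays, 17% had all 6 values on that side. The mean was -0.24 ± 0.09 (SD, n = 2), with an unadjusted 95% interval of -0.56 to 0.08 and an adjusted p of 0.334 by limma.

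TGFBR2 gave 1.02, 0.44 and -0.57 on lactating array 1 and 0.81, 0.90 and -0.07 on lactating array 2. The third spot lay on the opposite side on both arrays, although the other spots lay on the casein side. On reference against reference array 1 the same spots read -0.11, -0.10 and 0.39, so there the third spot stood above the others, and on array 2 a single spot had a value (0.52). The mean of the lactating arrays was 0.42 ± 0.18 (SD, n = 2), with an unadjusted 95% interval of 0.10 to 0.75 and an adjusted p of 0.081 by limma. The call depended on how the spots were summarised. With the median of the spots TGFBR2 lay at 0.63 and passed limma's test with an adjusted p of 0.0307. In that setting 79 of 697 genes (11.3%) passed. The adjusted p by limma over all settings with both arrays ran from 0.0307 to 0.343. Without the spot farthest from the others on each array, a choice made after the data were seen, the mean was 0.79.

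For GHR, the growth hormone receptor, lactating array 1 gave 0.13, 0.26 and 0.28, and lactating array 2 gave -0.04, 0.07 and -0.000267. Both lactating arrays lay below the reference against reference arrays, where the spots stood at 0.39, 0.38 and 0.33 on array 1 and at 0.45 and 0.86 on array 2. The same RNA was in both channels there, and GHR ranked 12 of 700 genes from the most positive on array 1 and 20 of 681 on array 2. How many other clones lay lower on both lactating arrays was not counted. Averaged over the reference against reference arrays GHR was at 0.51 ± 0.20 (SD, n = 2), with an unadjusted p of 0.0155 and an adjusted p of 0.717 by limma. On those arrays 0 of 680 genes (0%) passed limma's test, and 43 had an unadjusted p under 0.05. The lactating mean was 0.12 ± 0.15 (SD, n = 2; adjusted p = 0.703, limma). Relative to the reference against reference arrays it turned to -0.40 (adjusted p = 0.336, limma).

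RARA, the retinoic acid receptor, had -0.01, -0.80 and 0.16 on lactating array 1 and 0.30, 0.71 and 0.72 on lactating array 2. Array 1 was pulled down by its second spot, and array 2 was on the casein side in every spot. The array means were -0.22 and 0.58, and their mean of 0.18 ± 0.56 (SD, n = 2) had an adjusted p of 0.581 by limma. These arrays used heifers of different weights, and in a block of 144 spots without annotation 68.8% of values on array 1 and 100% on array 2 were exactly 0, so animal and processing cannot be told apart. On the reference against reference arrays RARA was at -0.30 and -0.04.

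TEAD3 was at 0.17, 0.31 and 0.12 on lactating array 1 and at 0.41, 0.61 and 0.93 on lactating array 2. Its values on the reference against reference arrays were 0.21, -0.37 and -0.25 on array 1 and -0.12, 0.18 and 0.14 on array 2. Every lactating spot was on the casein side, as were all 6 spot values of 22.3% of clones. The spots of array 2 all lay above those of the reference against reference arrays, and those of array 1 overlapped them. How many other clones did so was not counted. On lactating array 2, 15.1% of genes lay at least as far from 0 as TEAD3. The mean was 0.42 ± 0.32 (SD, n = 2), with an unadjusted 95% interval of 0.08 to 0.77 and an adjusted p of 0.0909 by limma, between 0.0909 and 0.343 over all settings with both arrays. It was 0.65 without array 1 and 0.20 without array 2.

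EGR1 stayed closest to 0. Its spots were -0.09, -0.01 and -0.09 on lactating array 1 and 0.14, -0.12 and -0.22 on lactating array 2. The array means of -0.06 and -0.07 were almost equal, and their mean of -0.07 ± 0.004 (SD, n = 2) had an adjusted p of 0.832 by limma with an unadjusted 95% interval of -0.39 to 0.26. Reference against reference array 2 held the widest spots of the gene, at 0.67, 0.16 and -1.38.

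**Figure D1:**
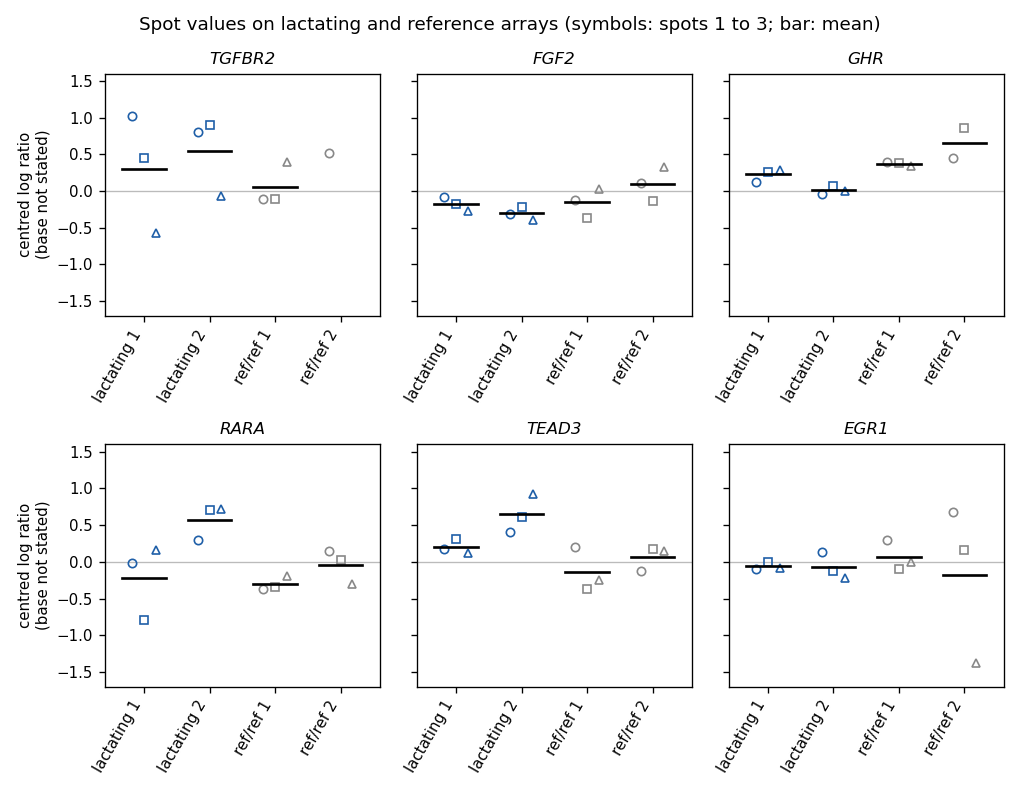
Centred log ratio (base not stated) of each spot of the 6 genes on lactating arrays 1 and 2 and on reference against reference (ref/ref) arrays 1 and 2; open symbols are the 3 spots, bars the mean of an array with at least 2 spots. The third TGFBR2 spot (triangle) lies on the other side of 0 from the other spots on both lactating arrays, and GHR lies higher on the reference against reference arrays (0.37 and 0.66) than on the lactating arrays (0.23 and 0.01).

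**Figure D2:**
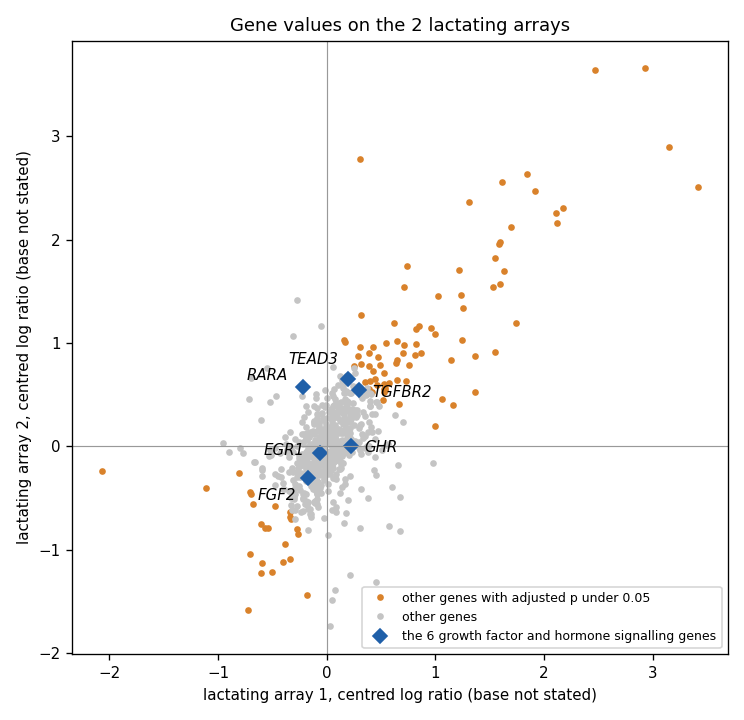
Centred log ratio (base not stated) of each of 697 genes on lactating array 1 (x axis) and lactating array 2 (y axis); diamonds are the 6 signalling genes, orange points other genes with an adjusted p under 0.05 by limma. The diamonds lie within or at the edge of the cloud of genes that did not pass, and RARA lies on different sides of 0 on the arrays (-0.22 and 0.58).

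Markers of the cell types that the gland could hold were measured on the same lactating arrays. Beside the 8 of 9 milk secretion genes on the casein side (median 0.41), 1 of 3 epithelial genes (median -0.09), 1 of 4 stroma genes (-0.15), 1 of 2 endothelial genes (0.04), 1 of 4 leukocyte genes (-0.09), 1 of 3 smooth muscle genes (-0.25) and 1 of 3 proliferation genes (-0.11) lay there. The adipocyte list had 0 measured genes. The part of cell makeup in the values of the 6 genes was not tested.

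The tissue arrays asked how these genes differ between organs, each against the cell line. TEAD3 in prepubertal mammary gland was the only value of the 6 genes near 1 unit, at 0.96. RARA in adipose tissue was the most negative, at -0.52. The size of this RARA value came from 1 spot and that of the TEAD3 value from 2 spots. EGR1 was positive on all 8 tissue arrays. FGF2 was negative in adipose and adrenal tissue and positive on the other 6 arrays. Across the tissues the means of TEAD3 spanned 1.03 units and those of RARA 0.83, against 0.52 for TGFBR2, 0.43 for FGF2, 0.43 for GHR and 0.36 for EGR1, and against a median of 0.52 over 695 genes with values on all 8 arrays. Each tissue had 1 array, so no test was made, and the SDs below are over spots. The adipocyte list had no measured gene to check adipose tissue by. The 3 hepatocyte genes were mixed in liver, with FGG at 0.21, A2M at -0.27 and C3 at -1.10. Their median there was -0.27, against -0.07 to 0.25 in the other tissues. The 3 epithelial and 4 leukocyte genes had medians of 0.72 and 0.68 in ileum. The leukocyte median was -0.05 in thymus, -0.18 in lymph tissue and -0.22 in spleen. These genes were mixed too: CD74 was positive in lymph tissue (0.48) and spleen (0.19), where PTPRC, LCP1 and RAC2 were negative. In thymus PTPRC and CD74 were positive and LCP1 and RAC2 negative. The part of such cells in the values below was not tested.

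FGF2 was at 0.30 ± 0.12 in mammary gland, 0.23 ± 0.06 in thymus, 0.18 ± 0.06 in ileum, 0.12 ± 0.08 in spleen, 0.11 ± 0.07 in lymph tissue, 0.05 ± 0.07 in liver, -0.11 ± 0.04 in adrenal tissue and -0.13 ± 0.07 in adipose tissue. The step between liver and adrenal tissue, 0.16, was the only one of 7 between neighbours larger than the pooled SD of their spots, and there the spots did not overlap. Here and below such steps were taken for the signalling genes only, so no share over all genes can be set beside them. 3 tissues lay farther from 0 than reference against reference array 1 (-0.16), and 7 lay farther than array 2 (0.10). The 3 spots followed each other across the tissues with a mean Pearson r of 0.79, against a median of 0.78 over 1121 clones.

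The order for TGFBR2 was spleen (0.32 ± 0.16), lymph tissue (0.26 ± 0.56), adipose tissue (0.23 ± 0.21), thymus (0.19 ± 0.11), ileum (0.06 ± 0.57), mammary gland (0.01 ± 0.12), liver (-0.02 ± 0.27) and adrenal tissue (-0.20 ± 0.12). No pair of neighbours differed beyond the pooled SD of their spots. The third spot was again the discordant one in ileum (0.58, 0.15 and -0.55) and liver (0.12, 0.14 and -0.34), and in lymph tissue the spots read 0.30, -0.32 and 0.79. Across the tissues the mean r between spots was -0.01, the lowest of the 6 genes.

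GHR had its highest value in ileum (0.36 ± 0.28), followed by adrenal tissue (0.21 ± 0.08), lymph tissue (0.16 ± 0.07), adipose tissue (0.08 ± 0.12), liver (0.07 ± 0.07), mammary gland (0.06 ± 0.35), thymus (0.05 ± 0.09) and spleen (-0.07 ± 0.25). None of the 7 steps exceeded the pooled SD of the spots. Liver, the organ in which growth hormone drives release of insulin-like growth factor 1, stood in the middle of this order. The gene was positive in 7 of 8 tissues, and 14.2% of all genes were positive in at least 7. Yet 0 of 8 tissues lay farther from 0 than either reference against reference array (0.37 and 0.66). With the mean of those arrays subtracted, the mean over tissues was -0.40, in place of 0.11.

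RARA stood highest in lymph tissue (0.31 ± 0.07), ileum (0.29 ± 0.11) and thymus (0.27 ± 0.03), which differed by less than the SD of their spots. Next came spleen (0.17 ± 0.09), liver (0.03 ± 0.03), adrenal tissue (-0.02 ± 0.05) and mammary gland (-0.14 ± 0.32), with adipose tissue last (-0.52 ± 0.84). The steps from thymus to spleen (0.10), from spleen to liver (0.13) and from liver to adrenal tissue (0.05) exceeded the pooled SD of the spots. Of these, only the spots of thymus and spleen did not overlap. The size of the adipose value came from its second spot, at -1.49, beside -0.09 and 0.02. The same spot was lowest in mammary gland (-0.50) and on lactating array 1. Without the farthest spot on each array adipose tissue was still lowest, but at -0.03, with adrenal tissue next at 0.004. RARA ranked 4 of 701 genes from the most negative on the adipose array. It was itself the only 1 of 695 genes (0.144%) with a margin this large below the other tissues there, and that margin rests on the second spot. On reference against reference array 1 it was at -0.30 with all 3 spots negative.

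TEAD3 read 0.19, 1.32 and 1.36 in mammary gland and ranked 7 of 703 genes from the most positive there. On that array 1.28% of genes lay at least as far from 0 as its mean, and 0.853% at least 1 unit. Below it came lymph tissue (0.41 ± 0.02), spleen (0.27 ± 0.13), thymus (0.23 ± 0.23), ileum (0.04 ± 0.20), liver (-0.05 ± 0.08), adrenal tissue (-0.06 ± 0.07) and adipose tissue (-0.07 ± 0.21). The margin of mammary gland over lymph tissue was 0.55 against a pooled SD of 0.47, and with the first spot at 0.19 the spots of both tissues overlapped. In mammary gland 1.44% of genes had a margin at least as large. The step from lymph tissue to spleen (0.14) also exceeded the pooled SD, and its spots did not overlap. Spots 2 and 3 correlated with an r of 0.98 over the tissues, and spot 1 with an r of 0.28 and 0.31 with them. The ileum and mammary arrays differed from the other 6 in the block of spots without annotation, where 69.4% and 67.4% of values were exactly 0, against 98.6% to 100%. Over those 6 arrays the TEAD3 mean was 0.12 ± 0.21 (SD, n = 6), against 0.22 ± 0.35 over all 8.

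EGR1 was highest in lymph tissue, with spots at 0.36, 0.44 and 0.40, followed by thymus (0.20 ± 0.22), spleen (0.17 ± 0.07), ileum (0.15 ± 0.05), adipose tissue (0.15 ± 0.04), adrenal tissue (0.04 ± 0.09), liver (0.04 ± 0.05) and mammary gland (0.04 ± 0.17). Lymph tissue exceeded thymus by 0.20, more than the pooled SD of 0.16, although 1 thymus spot reached 0.45. In lymph tissue 0.719% of genes had a margin over the other 7 tissues at least as large. Such shares were taken for the highest and the lowest tissue of each signalling gene. Those given here for RARA, TEAD3 and EGR1 were the smallest, and the others ran from 2.01% to 12.4%. Each tissue was picked because the gene was highest or lowest there, so these shares are not p-values. The step from adipose to adrenal tissue (0.11) was also larger than the spread, and the last 3 tissues did not differ beyond their spread. All 8 arrays were positive for 3.02% of genes. The positive count for EGR1 was 7 with the median of the spots, and 6 without the farthest spot on each array.

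**Figure D3:**
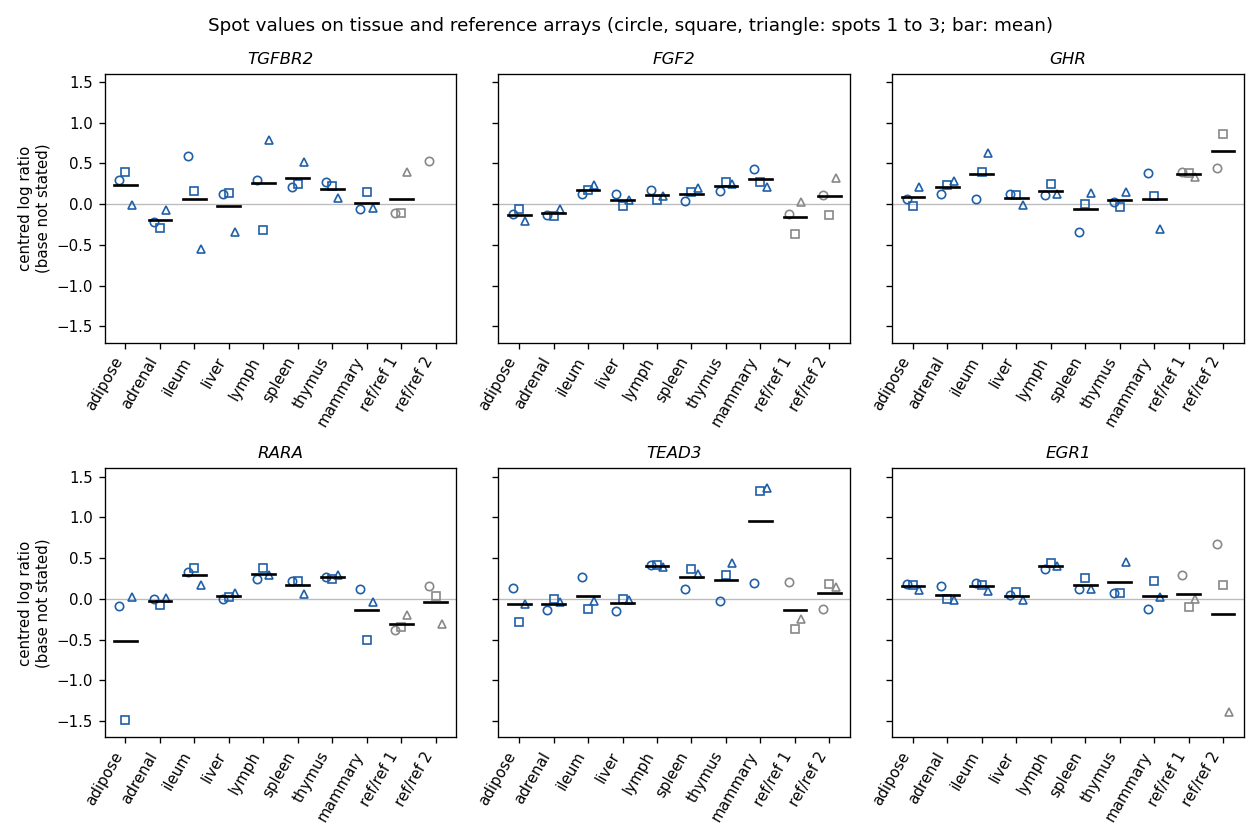
Centred log ratio (base not stated) of each spot of the 6 genes on the 8 tissue arrays, each against the cell line, and on the 2 reference against reference (ref/ref) arrays; open symbols are the 3 spots, bars the mean where at least 2 spots had a value. 2 of 3 TEAD3 spots stand above 1 unit in mammary gland, 1 RARA spot stands at -1.49 in adipose tissue, and GHR is higher on both reference against reference arrays than in any tissue.

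The 3 genes with the highest Pearson r to each of the 6 over the 8 tissue arrays were listed, among genes that varied at least as much as the median gene. This is a description, in which all points share the cell line. For TEAD3 these were TTC1 (Pearson r 0.98, Spearman rho 0.98), AKIRIN2 (0.97 and 0.93) and the carnitine transporter family member SLC22A4 (0.97 and 0.81). FGF2 was followed by the sirtuin SIRT7 (r 0.90, rho 0.95), LOC100124497 (0.83 and 0.90) and PDCD4 (0.83 and 0.76). The nearest to EGR1 were LHFPL2 (0.91 and 0.90), AKTIP (0.84 and 0.83) and the glycerolipid enzyme GPAM (0.82 and 0.69), and 2 of them recurred beside TGFBR2, which had COL6A2 of collagen VI (0.88 and 0.83), GPAM (0.83 and 0.74) and AKTIP (0.83 and 0.76). GHR had the ubiquitin ligase RNF128 (0.90 and 0.86), RBM23 (0.89 and 0.81) and the cyclin CCNL2 (0.87 and 0.90), whose r dropped to between 0.66 and 0.75 without ileum. RARA had IRAK1, a kinase of Toll-like receptor signalling (0.87 and 0.57), FBXO3 (0.73 and 0.86) and the Krebs cycle enzyme OGDH (0.70 and 0.50). They were the highest of 347 or 348 genes per member. For TGFBR2 and GHR the neighbours rest on means of spots that did not follow each other. The mean r between their own spots over these tissues was -0.01 and 0.14, against a median of 0.78 over clones. It was also below that median for EGR1 (0.44), TEAD3 (0.52) and RARA (0.69), and was 0.79 for FGF2. The neighbours of TEAD3 and RARA include the mammary and adipose values that came from 2 spots and 1 spot. Their r without those arrays was not taken.

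Of 257 entries on 6 pathway lists, 11 genes other than the 6 were measured, and 0 of 11 passed limma's test on the lactating arrays, where 14.8% of all genes did. An unadjusted p under 0.05 was found for 0 of the 11, against 28.8% of all genes. Their median was 0.06, with 8 on the casein side. The median over all genes was -0.00027, so all genes together were split about evenly between the sides. The lists of transforming growth factor beta, growth hormone and Hippo signalling held no measured gene beyond TGFBR2, GHR and TEAD3. CSF1, the macrophage growth factor, was at -0.25 and -0.38 on the lactating arrays (mean -0.32 ± 0.09, SD, n = 2; adjusted p = 0.18, limma), and at -0.17 and 0.21 on the reference against reference arrays. PDGFA, a platelet-derived growth factor chain, was at 0.40 and 0.19 (mean 0.30 ± 0.15, SD, n = 2; adjusted p = 0.22, limma), while the reference against reference arrays gave -0.47 and -0.18. FGFBP1, a secreted carrier of fibroblast growth factors such as FGF2, stood on none of these lists and was chosen after its values were seen. It was at 0.52 and 0.45 on the lactating arrays (mean 0.48 ± 0.05, SD, n = 2; adjusted p = 0.0437, limma), and at -0.84 and 0.40 on the reference against reference arrays. Of 10 alternative settings it passed in 1, with adjusted p-values up to 0.833, and it was on the casein side in all 10.

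Among partners of nuclear receptors, PGRMC1, a haem-binding membrane protein, split between 0.60 and -0.39, and the coactivator NCOA4 was at 0.15 and 0.06. In the immediate early and MAP kinase list the kinase MAPKAPK5 was at 0.18 and 0.38 (adjusted p = 0.258, limma) and MAPK1IP1L at -0.10 and 0.51 (adjusted p = 0.482, limma). The remaining genes, CSF3, CRTC1, NRAS, GRB2 and SHC1, had means between -0.11 and 0.06.

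**Figure D4:**
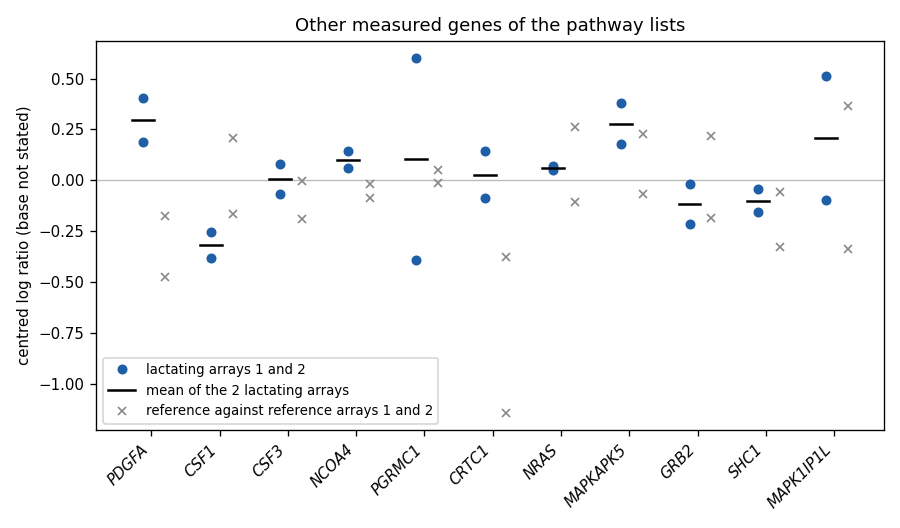
Centred log ratio (base not stated) of the 11 other measured genes of the pathway lists; filled circles are lactating arrays 1 and 2, the bar is their mean, and crosses are reference against reference arrays 1 and 2. CSF1 is negative (-0.25 and -0.38) and PDGFA positive (0.40 and 0.19) on both lactating arrays, and PGRMC1 changes side (0.60 and -0.39).

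On the array of prepubertal against postpubertal gland the 6 genes lay between -0.19 (GHR, with spots at -0.23, -0.08 and -0.25) and 0.18 (RARA, with spots at -0.35, 0.73 and 0.16). FGF2 was at -0.09, TGFBR2 at -0.05, TEAD3 at -0.05 and EGR1 at 0.03. All 3 spots of GHR and of TGFBR2 were negative, and those of the other 4 genes were mixed. None lay farther from 0 than both reference against reference arrays, and no gene of 694 (0%) reached 1 unit on this array.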

How the data were processed

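The members and gene lists were chosen with earlier results of these data known. Each of 13 arrays gave 3888 spots. The deposited value of a spot is a log ratio of both channels, but the sources used here do not state its base, background correction or normalization. Annotation of the platform paired 2538 spots with 1 gene, 30 with several and 1320 with no gene. 5 of the 6 members had a gene identifier found in RefSeq's bovine table (assembly ARS-UCD2.0), and TEAD3 was found there by symbol alone.

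An exact 0 was treated as missing, and each array was centred on its median (-0.0997 to 0.0304 as deposited). Spots of 1 accession were averaged (minimum 2 spots), accessions with values on at least 7 arrays were kept, and a gene was the mean of its accessions, which left 703 genes. limma 3.58.1 (lmFit and eBayes, R 4.3.3) made a two-sided test of the mean of the 2 lactating arrays against 0 over 697 genes, with Benjamini-Hochberg adjustment over all of them at 0.05. The fit was tested on simulated data. Tissue arrays, with 1 array per tissue, had no test. Alternatives changed the centring, exact 0, spot summary, array scale, spot minimum, fit and arrays.

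Beside the members, the text names, for each of them, the 3 genes with the highest Pearson r over the tissue arrays (among those with an SD of at least the median), and from each pathway list the genes that passed or otherwise the 2 largest. Pearson r between pairs of tissue arrays over all spots was -0.15 or higher. Python 3.11.15, numpy 2.4.6, pandas 2.3.3, scipy 1.17.1 and matplotlib 3.10.9 did the rest. The number of arrays limits the precision.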

Additional observations from a re-analysis of the deposited data

Results flagged for a closer look

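3 of the 6 genes had tissues on different sides of 0 with every spot, as did 807 of 1121 clones (72%), so this count does not set the 6 genes apart. These differences between tissues were not tested, since each tissue had 1 array. TEAD3 had all 3 spots positive in mammary gland, lymph tissue and spleen and all 3 negative in liver and adrenal tissue, where 1 spot each lay as near to 0 as -0.000716 and -0.00205. Its largest difference between such tissues was 1.02 units. TGFBR2 was positive in every spot in spleen and thymus and negative in every spot in adrenal tissue, with a largest difference of 0.52 units. FGF2 was positive in every spot in mammary gland, thymus, ileum, spleen and lymph tissue and negative in every spot in adrenal and adipose tissue, with a largest difference of 0.43 units. Between 28.9% and 40.4% of clones had 3 positive spots on a tissue array and 25.3% to 40.2% had 3 negative ones.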

How the results depend on the processing

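The count of genes that passed on the lactating arrays, 103, was 32 with exact 0 kept as a ratio, 30 with arrays scaled to 1 spread, 36 when the reference against reference arrays were added to the fit and 13 relative to their mean. Leaving out 1 lactating array gave 22 to 48, with the lone array assumed to vary like the reference against reference arrays. On the reference against reference arrays 5 genes passed with arrays scaled to 1 spread, against 0 in each other setting run. 1 of the 6 signalling genes passed in 1 setting, TGFBR2 with the median of the spots (0.63), where 79 of 697 genes (11.3%) passed. Without the farthest spot TGFBR2 was at 0.79. GHR turned to -0.40 relative to the reference against reference arrays, on the lactating arrays and over the tissues alike. RARA turned to -0.22 without array 2, against 0.58 without array 1. EGR1 was -0.13 without the farthest spot. For these values the cause was not tested. On the lactating arrays FGF2, TEAD3 and EGR1 kept their side in every alternative run and did not pass in those with a test, which leaving out the farthest spot did not have. TGFBR2 had too few spots on reference against reference array 2 for the settings that use it. No paired analysis was possible because the labels number only the reference against reference arrays. 3 spots per gene and 2 arrays limit the precision, and intensities were not used here.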

Other observations

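Single spots weighed on several of these values. Of 76 combinations of a signalling gene and an array with values in all 3 spots, 7 (9.21%) had spots more than 1 unit apart, against 4.61% over all clones and arrays. The widest were EGR1 on reference against reference array 2 (2.06 units), TGFBR2 on lactating array 1 (1.58) and RARA in adipose tissue (1.51). The others were TEAD3 in mammary gland (1.16), TGFBR2 in ileum (1.14) and lymph tissue (1.11), and RARA on the array of prepubertal against postpubertal gland (1.08). FGF2 and GHR had none.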
